A study of Homo sapiens with 6 samples.

Results

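ID1, ID2, ID3 and ID4, together with 6 other genes of bone morphogenetic protein (BMP) signalling (the target ATOH8, the inhibitors SMAD6, SMAD7 and BAMBI, the ligand BMP4 and the receptor BMPR2), were examined in U87MG cells exposed to the ferroptosis inducer RSL3. These 10 genes were taken from the 65988 gene identifiers of each library by symbol. The set was selected on measured values: ID3 and ATOH8 were chosen by their fall in the comparison of RSL3-treated with control cells, and the other 8 were placed beside them to ask whether BMP targets fell together. Values of the 10 genes in that comparison are therefore descriptions, without a test of their own. U87MG, a long-established line of human glioblastoma cells, carries the genotype label WT. Control cells received vehicle (n = 3 libraries) and treated cells received 2 µM RSL3 (n = 3 libraries), an inhibitor of the lipid hydroperoxide-reducing enzyme GPX4. The exposure lasted 24 h, a duration taken from the study's text since the labels give none. For the sequencing a single cell line was used, and poly(A) RNA was read in pairs. The labels do not say whether the 3 libraries of a group came from separate cultures, so the SD and the p-values measure the spread between these libraries only.

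BMP ligands bind a pair of type I and type II receptors, and the activated receptor complex phosphorylates SMAD1, SMAD5 and SMAD9, which enter the nucleus with SMAD4 and switch on target genes. The ID genes are the classical early targets of this route. They encode helix-loop-helix proteins without a DNA-binding basic region, which pair with E proteins and keep them from DNA, and in glioma they are known for their link to an undifferentiated, self-renewing state. SMAD6, SMAD7 and BAMBI are feedback inhibitors that the pathway itself induces, and ATOH8 is a basic helix-loop-helix factor that responds to BMP in several cell types.

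A DNA arrangement known from BMP response elements, in which a GC-rich element (GGCGCC) is followed after 5 bases by the SMAD box GTCT, was searched on both strands from 5000 bases before to 500 bases after the start of the canonical transcript, in GRCh38. The sites are shown because they lie near 3 of the genes that fell. Among the 10 genes, 2 held the arrangement, ID2 and ID3, against 0.765% of the 15682 tested genes with a start in the annotation. With the more permissive GGCGNC in place of GGCGCC, 3 did, ID1, ID2 and ID3, against 2.44% of tested genes. The arrangement is known from BMP response elements and the ID genes are classical BMP targets. Matches near them could be foreseen, so these shares are no test and no reading is drawn from them. In the following lines, capitals mark the GC-rich element and the SMAD box, read 5′ to 3′ on the strand of the match, with 7 bases on either side. Coordinates are those of the match itself.
ID1: caggcctGGCGTCtaacgGTCTgagccgc
ID2: cgcgcctGGCGCCagagaGTCTgctccgg
ID2 (more distant): cggggctGGCGTCgccttGTCTgcgccgc
ID3: ccaccctGGCGCCaggctGTCTggggctg
The ID1 site lies at chr20:31604378-31604392 (plus strand), at -904 bases from the ID1 start, in an exon of ENSG00000289875, a gene on the minus strand. The nearer ID2 site lies at chr2:8678942-8678956 (plus strand), at -3107 bases from the ID2 start, in an untranslated part of an exon of an ID2 transcript that starts further upstream. The more distant ID2 site, at chr2:8677093-8677107 (minus strand), falls within the antisense gene ID2-AS1, outside its exons. The ID3 site lies at chr1:23562449-23562463 (minus strand), at -2955 bases from the ID3 start and between genes. The stricter arrangement was in none of the 10 genes within 1000 bases before the start, where 0.568% of tested genes held it. A match of letters is no evidence of binding, and binding was not measured.

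The promoters of the ID genes are shown because ID1, ID2 and ID3 fell and ID4 was not called. The lines give the 250 bases before the RefSeq start (GRCh38.p14, sense strand), with GTCT or its complement AGAC in capitals.
ID1: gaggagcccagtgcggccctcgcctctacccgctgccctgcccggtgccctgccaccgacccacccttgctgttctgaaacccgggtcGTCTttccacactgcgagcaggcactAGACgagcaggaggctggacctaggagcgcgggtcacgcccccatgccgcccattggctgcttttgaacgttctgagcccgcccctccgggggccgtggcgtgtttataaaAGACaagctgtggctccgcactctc
ID2: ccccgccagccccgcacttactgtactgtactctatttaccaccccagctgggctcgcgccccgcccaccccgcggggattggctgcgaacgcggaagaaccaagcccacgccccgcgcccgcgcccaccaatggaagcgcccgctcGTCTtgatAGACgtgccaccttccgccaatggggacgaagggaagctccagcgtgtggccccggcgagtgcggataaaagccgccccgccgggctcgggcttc
ID3: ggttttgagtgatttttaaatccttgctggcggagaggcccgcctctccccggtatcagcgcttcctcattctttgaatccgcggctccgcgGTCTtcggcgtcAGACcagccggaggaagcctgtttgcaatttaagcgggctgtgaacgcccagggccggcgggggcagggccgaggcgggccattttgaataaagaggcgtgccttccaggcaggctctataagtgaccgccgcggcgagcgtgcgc
ID4: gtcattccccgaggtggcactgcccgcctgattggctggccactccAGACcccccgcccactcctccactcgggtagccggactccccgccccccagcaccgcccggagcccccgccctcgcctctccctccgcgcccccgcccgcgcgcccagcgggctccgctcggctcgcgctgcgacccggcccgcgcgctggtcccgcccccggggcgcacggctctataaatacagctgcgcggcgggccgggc
They cover chr20:31605039-31605288, chr2:8681806-8682055, chr1:23559502-23559751 (minus strand) and chr6:19837120-19837369. GTCT occurred 3 times in the ID1 promoter, 2 times in that of ID2, 2 times in that of ID3 and 1 time in that of ID4. It is a short word, present in 77.5% of the 35116 RefSeq promoters of this length. GGCGCC, present in 16.4% of them, was in none of these 4, nor in the promoters of ATOH8 and SMAD6. The BAMBI promoter held 3 copies and the BMPR2 promoter 1. BMP4 had 1 copy at 1 of its 3 RefSeq starts, and SMAD7 had 0 at all 3 of its starts. The CCAAT box, in 32% of promoters on either strand, occurred 1 time in ID1, 3 times in ID2, 1 time in ID4 and not in ID3.

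Total counts per library ranged from 27813462 to 43306335, and the trimmed-mean (TMM) scaling factors of edgeR lay between 0.995 and 1.01. Normalized counts were obtained by scaling each library to the average effective size. After the edgeR filter on low counts, 16105 genes were tested by the quasi-likelihood F test, and a gene was called at an adjusted p under 0.05. CDKN2A and MTAP, which are deleted in the U87MG genome, had 0 counts in all 6 libraries. Of 7 glioma markers, VIM and CD44 were abundant and 2, SOX2 and S100B, were at or near 0; the summed level ran from 92556 to 94002 in control and from 73690 to 77196 in RSL3-treated libraries. Of 12 markers of other cell types, AIF1 and MOG were at 0 in all libraries. Their sum was 3077 to 3166 in control and 2663 to 2834 in treated libraries, most of it PDGFRB, and 185 to 194 against 213 to 247 without PDGFRB. Of the 6 tested, MBP was called higher, from 91.05 ± 13.0 to 150.1 ± 9.07 normalized counts (SD, n = 3; edgeR adjusted p = 0.00185). PDGFRB was called lower and the others were not called. The part of these shifts in the results below was not tested. GPX4, the target of RSL3, fell from 10940 ± 262 to 8191 ± 105 normalized counts (SD, n = 3), and HMOX1, a heme-degrading enzyme of the oxidative stress response, rose from 30317 ± 1761 to 58473 ± 6101 (SD, n = 3; edgeR adjusted p = 1.68e-09 and 3.72e-11).

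ID1, ID2, ID3, ATOH8 and SMAD6 fell in RSL3-treated cells, whereas ID4, SMAD7, BAMBI and BMPR2 were not called and BMP4 was barely detected. Of the 10 genes, 9 passed the filter on low counts. Of these 9, 5 were called lower, against 12.7% of all genes tested, and 0 were called higher, against 12.9% (25.6% in either direction). No reading is drawn from these shares, since the comparison itself chose 2 of the genes. At an unadjusted p under 0.05, 1 gene was higher, BAMBI, and the DESeq2 Wald test called 5 lower and 0 higher. The libraries of both groups did not overlap in 6 of the 9 genes (38.6% of all genes tested). In bulk RNA, fewer cells expressing a gene and less of its RNA per cell cannot be told apart.

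ID3 (ENSG00000117318), chromosome 1, 23557926 to 23559501, minus strand, was the member with the highest level per kilobase of exon. Its normalized counts were 1715, 1763 and 1913 in control replicates 1, 2 and 3, and 792, 730.3 and 805 in RSL3 replicates 1, 2 and 3. Every treated library lay below every control library, with a gap far wider than the spread within either group. On the log2 scale the change was -1.21 (SE 0.06; SE, standard error), which left 43.2% of the control level. ID3 ranked number 70 by size of decrease among the 2041 genes called lower, a place that is description only, since ID3 was chosen by this fall.

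ID1 (ENSG00000125968, plus strand of chromosome 20, 31605283 to 31606515), the ID gene most often used as a readout of BMP signalling, had 1003, 912 and 1167 normalized counts in the control libraries and 514, 458 and 488 in the treated libraries. All treated values were again below all control values. It changed by -1.08 on the log2 scale (SE 0.08), to 47.2% of the control level.

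ID2 (ENSG00000115738, plus strand of chromosome 2, 8678845 to 8684461) had 976, 938 and 1022 normalized counts in control cells and 551, 534 and 570.3 in treated cells. The groups were again apart and the replicates close, with a coefficient of variation of 4.30% in control and 3.29% in treated cells. It changed by -0.83 on the log2 scale (SE 0.06), to 56.3% of control. The antisense gene ID2-AS1 covers 145 (6.55%) of the ID2 exon bases, and the counting ignored strand, so reads there cannot be assigned to either gene. ID2B, a processed pseudogene of ID2, held a single read over the 6 libraries.

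ID4 (ENSG00000172201, plus strand of chromosome 6, 19837370 to 19842197) was the scarcest ID gene and did not follow the others past the threshold. Its normalized counts were 70.7, 59.1 and 66.6 in control cells and 64.4, 55.1 and 59.9 in treated cells, which overlap. The log2 fold change of -0.14 had an SE of 0.21. These values rest on 48 to 90 reads per library. Differences in response between members were not tested.

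**Figure D1:**
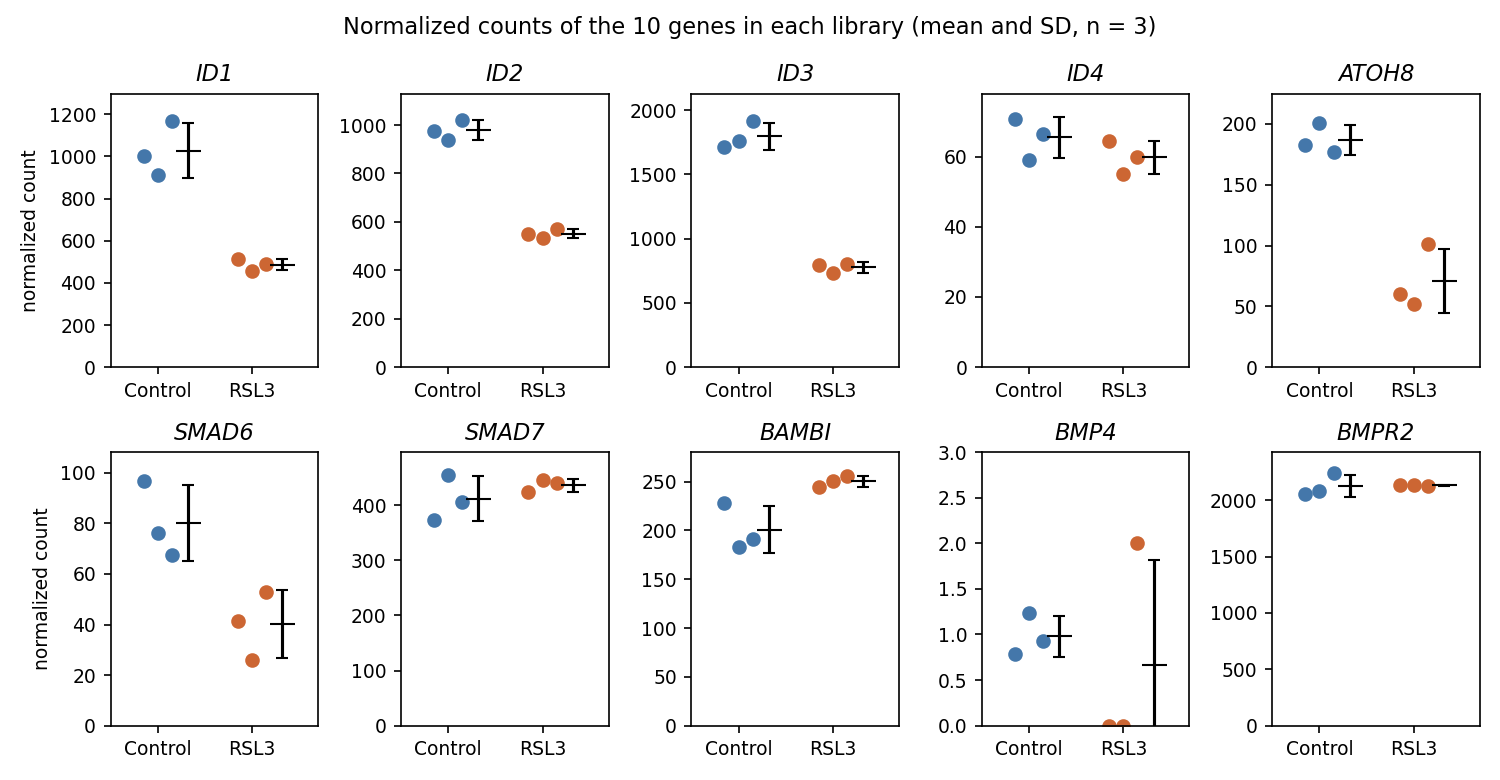
Normalized counts (vertical axes, each from 0) of the 10 genes in the 3 control (blue) and 3 RSL3-treated (orange) libraries, with the mean and SD of each group beside the points; error bars are cut at 0. In ID1, ID2, ID3, ATOH8 and SMAD6 all treated libraries lie below all control libraries, in BAMBI above them, and in the other 4 the groups overlap.

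Levels of different genes were compared per kilobase of exon. In control cells ID3 stood at 1201 ± 69.0, ID1 at 833 ± 105 and ID2 at 442 ± 19.0 normalized counts per kilobase (SD, n = 3), and ID4 at 16.9 ± 1.53. The ranges of ID3, ID1 and ID2 did not overlap within either group. Summed over the 4 ID genes, the level per kilobase went from 2493 ± 185 to 1178 ± 54.6 with RSL3 (SD, n = 3 libraries each). Within this sum, ID3 gave 47.4%, 50.0% and 47.3% in control libraries and 43.7%, 43.8% and 44.6% in treated libraries. ID2 gave 17.1% to 18.2% in control and 20.5% to 21.6% in treated libraries, while ID1 held 31.4% to 35.0% and 32.8% to 34.4%. ID4 gave 0.636% to 0.755% in control and 1.275% to 1.372% in treated libraries. ID3 thus lost share and ID2 and ID4 gained share, with ID1 overlapping between the groups. These shares follow from the fold changes above and are not further evidence.

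**Figure D2:**
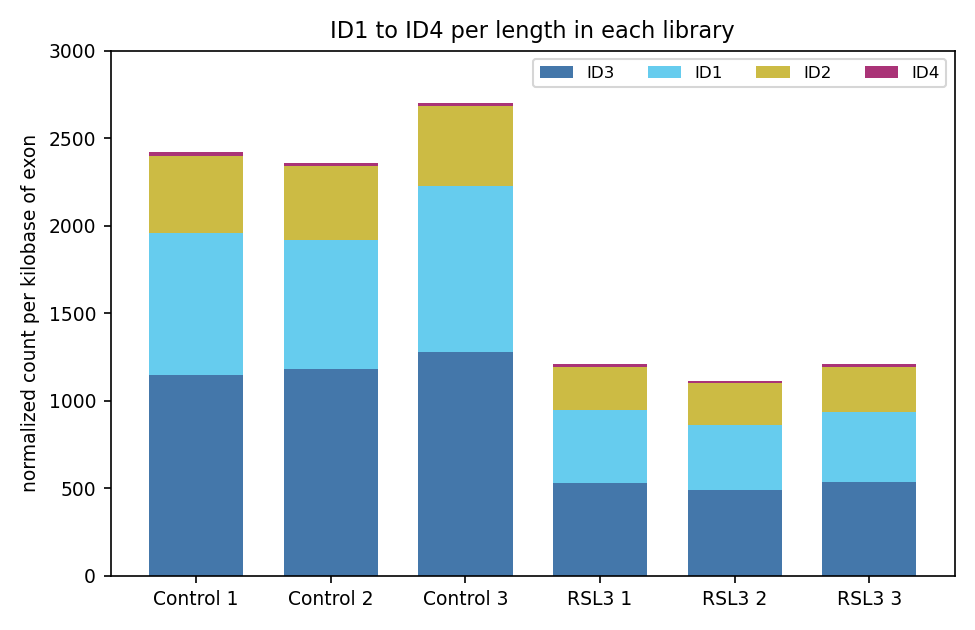
Stacked bars of ID3, ID1, ID2 and ID4 as normalized counts per kilobase of exon (vertical axis, from 0) in each of the 6 libraries. The control bars reach 2357 to 2704 and the treated bars 1115 to 1212, and ID4 forms only a thin band in each.

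The remaining members followed at lower levels. In control cells the order per kilobase was BMPR2 at 170 ± 7.89, SMAD7 at 104 ± 10.5, BAMBI at 93.9 ± 11.1, ATOH8 at 20.1 ± 1.33, ID4 as given above, SMAD6 at 9.37 ± 1.75 and BMP4 at 0.317 ± 0.0735 (SD, n = 3). SMAD7 and BAMBI did not differ beyond their spread. In treated cells BAMBI, at 117 ± 2.51, stood above SMAD7, at 111 ± 2.98, and ID4, at 15.4 ± 1.21, above ATOH8, at 7.62 ± 2.83. Exon lengths are those of all annotated exons. With the canonical transcript alone, a choice made after seeing the data, ID4 (16.9) and SMAD6 (20.9) exchanged places in control cells. By that length, ID4 at 15.4 ± 1.21 and ATOH8 at 12.5 ± 4.64 did not differ beyond their spread in treated cells (SD, n = 3).

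ATOH8 (ENSG00000168874, plus strand of chromosome 2, 85751344 to 85791383) had 183, 201 and 177 normalized counts in control cells and 59.8, 51.9 and 101 in treated cells. The treated libraries were all lower, but RSL3 replicate 3 stood well above the other treated libraries, and the coefficient of variation was 37.1% in treated against 6.63% in control cells. ATOH8 was chosen by its fall in this comparison, so its place as the largest decrease among the 9 tested members is no result. The log2 fold change was -1.38 (SE 0.19), or 38.3% of control. It became -1.73 without RSL3 replicate 3 and -1.20 without RSL3 replicate 2.

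Of the inhibitory SMADs, which block receptor-activated SMADs, SMAD6 fell and SMAD7 did not pass the threshold. SMAD6 (ENSG00000137834, plus strand of chromosome 15, 66702236 to 66782849), the inhibitor that acts mainly on the BMP branch, had 96.7, 76.3 and 67.5 normalized counts in control cells and 41.4, 26.0 and 52.9 in treated cells. The groups did not overlap, on 25 to 123 reads per library. It changed by -1.002 on the log2 scale (SE 0.25), to 49.9% of control, and the call was lost without control replicate 1, the highest library (log2 fold change -0.83). SMAD7 (ENSG00000101665, minus strand of chromosome 18, 48919853 to 48950965), which blocks both the TGF-beta and the BMP branch, had 373, 455 and 406 normalized counts in control cells and 423, 446 and 440.4 in treated cells. These overlap, and the change of 0.09 on the log2 scale had an SE of 0.09.

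BAMBI (ENSG00000095739, plus strand of chromosome 10, 28677510 to 28682932), a pseudoreceptor that lacks the kinase domain, had 228, 183 and 191 normalized counts in control cells and 245, 250.4 and 256 in treated cells. All treated values were above all control values, with a log2 fold change of 0.31 (SE 0.12) that missed the threshold. It passed the threshold without control replicate 1, the highest control library, where the log2 fold change was 0.42, and in the fit with a block for replicate number, where it was 0.32.

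BMPR2 (ENSG00000204217, plus strand of chromosome 2, 202376327 to 202567751), the type II BMP receptor, had more normalized counts than any other member, on the longest exon sequence. It had 2055, 2079 and 2237 normalized counts in control cells and 2134, 2133 and 2127 in treated cells, which overlap, at 100.4% of control by the fitted change (log2 fold change 0.005, SE 0.04). Another gene shares 57 of its exon bases (0.456%). BMP4 (ENSG00000125378, minus strand of chromosome 14, 53949736 to 53958761), a ligand, had 1, 1 and 1 reads in the control libraries and 0, 0 and 2 in the treated libraries. No fold is given at this depth. Of the BMP4 exon bases, 506 (16.3%) also belong to ENSG00000287156, and 7 of the 10 genes have no exon base in common with others.

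**Figure D3:**
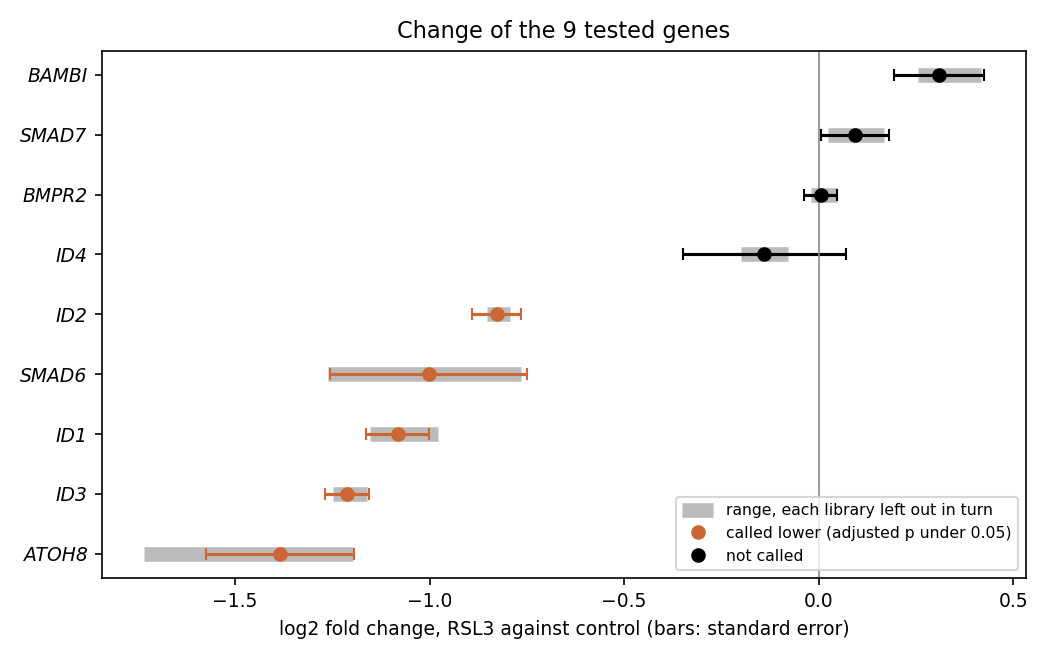
Log2 fold change of RSL3-treated against control cells (horizontal axis) for the 9 tested genes, with the standard error as bars and, in grey, the range when each library is left out in turn. ID1, ID2, ID3, ATOH8 and SMAD6 (orange, called lower) lie between -1.38 and -0.83, and the 4 genes not called (black) between -0.14 and 0.31.

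The genes whose pattern over the 6 libraries was closest to that of ID3, ID1 and ATOH8 were found among 11463 others with a mean normalized count of at least 100, by the root mean square difference of log2 values centred on the own control mean. For ID3 they were PALMD (difference 0.083), AQP9 (0.11), COL1A2 (0.12), CHI3L2 (0.12) and ID1 (0.13). ID2 came at place 29 and ATOH8 at place 42 of this order. For ID1 they were TMEM171, PLEKHG4, CCR1, OLFML3 and CHI3L2, with differences from 0.081 to 0.13. For ATOH8 they were GPRIN3, PTGER2, AQP9, PCDH18 and COL1A2, with larger differences, from 0.17 to 0.28. All points share the same 6 libraries, so the order describes these libraries alone. With values centred on control, genes of similar fold change come close to each other. The places of ID1, ID2 and ATOH8 therefore largely restate their fold changes and are not further evidence.

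The other genes of the pathway were counted in 7 lists by role, which hold 123 genes. Of these, 83 were tested, 19 were called lower and 18 higher by edgeR. Called genes thus made up 44.6% of those tested in the lists, against 25.6% of all genes tested (12.7% lower and 12.9% higher), a difference that was not tested. By list, this share ran from 30.8% (receptors and co-receptors) to 58.3% (TGF-beta SMAD3 targets), on 9 to 16 tested genes each. Differences between lists were not tested. Over the 83 tested genes the median log2 fold change was -0.04, against -0.004 over all genes tested. Calls went in both directions, and 10 of the 123 genes were at 0 in every library. Of the 46 tested genes whose exons overlap no other gene, 9 were called lower and 8 higher. Without RSL3 replicate 2, the lower calls numbered 12.

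Among ligands, 1 of 9 tested genes fell and 2 rose. BMP2, a ligand of the BMP branch, had 429, 405 and 436 normalized counts in control cells and 584, 591 and 555 in treated cells. The treated libraries were all higher (log2 fold change 0.44, SE 0.08, edgeR adjusted p = 0.000161). GDF11, a ligand of the activin branch, also rose (0.38, edgeR adjusted p = 0.000497). TGFB2 fell from 918 ± 7.14 to 521 ± 33.8 normalized counts (SD, n = 3), with a log2 fold change of -0.81 (edgeR adjusted p = 1.01e-08), although 34.2% of its exon bases are shared with TGFB2-AS1 and TGFB2-OT1. TGFB1, another TGF-beta ligand, had 6511 ± 61.3 and 6561 ± 20.2 normalized counts (SD, n = 3) and was not called.

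Among receptors and co-receptors, 2 of 13 tested genes fell, 2 rose and 9 were not called. BMPR1A, a type I BMP receptor, fell slightly, from 1226 ± 22.6 to 1064 ± 38.0 normalized counts (SD, n = 3; log2 fold change -0.20, edgeR adjusted p = 0.00473), a call lost in DESeq2 with 2 surrogate variables. ACVR1C, a type I receptor of the activin branch, fell from 50.8 ± 0.810 to 25.3 ± 8.63 (SD, n = 3; edgeR adjusted p = 0.013), a call lost without RSL3 replicate 2 and in DESeq2 with 2 surrogate variables (log2 fold changes from -1.21 to -0.76 over the alternatives). RGMB, a BMP co-receptor, rose (0.44, edgeR adjusted p = 0.000115), with 45.8% of its exon bases shared with other genes. NEO1, the receptor of RGM proteins, rose by 0.15 (edgeR adjusted p = 0.0299), and passed the threshold in 7 of 14 alternatives. The call was lost without control replicate 1, RSL3 replicate 1 or RSL3 replicate 2. It was also lost with no filter and in DESeq2 with 0, 1 or 2 surrogate variables. TGFBR1 was not called, at 6805 ± 296 and 6638 ± 97.0 normalized counts (SD, n = 3).

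Among SMADs and their intracellular regulators, 2 of 16 tested genes fell and 6 rose, the increases by at most 0.24 on the log2 scale. SMAD5, which carries the BMP signal, rose from 3103 ± 68.7 to 3568 ± 115 normalized counts (SD, n = 3; log2 fold change 0.20, edgeR adjusted p = 0.00024). SMAD3, of the TGF-beta branch, rose by 0.24 (edgeR adjusted p = 0.000117), and SKIL, a SMAD co-repressor, by 0.23 (edgeR adjusted p = 0.00102). SMAD9, the third SMAD of the BMP branch, had 64.5, 94.7 and 61.0 normalized counts in control cells and 52.9, 34.3 and 29.0 in treated cells. The log2 change of -0.91 (edgeR adjusted p = 0.0129) met the threshold, and the call was lost without control replicate 2, RSL3 replicate 2 or RSL3 replicate 3, over alternatives that ranged from -1.20 to -0.71. TGIF1, a co-repressor, was not called (log2 fold change 0.001).

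Among extracellular antagonists and other extracellular regulators, 5 of 11 tested genes fell and 1 rose. The list is mixed in function, so the count does not describe antagonists as a class. BMPER, a secreted regulator of BMP ligands, had 145, 114 and 107 normalized counts in control cells and 39.1, 57.1 and 74.9 in treated cells. BMPER fell by 1.10 on the log2 scale (SE 0.21, edgeR adjusted p = 0.000497), with no overlap of the groups. LTBP1 and LTBP3, which tether latent TGF-beta to the matrix, fell by 0.33 and 0.27 on the log2 scale (edgeR adjusted p = 3.24e-06 and 1.94e-06). FSTL1, a follistatin-like glycoprotein, had a log2 fold change of -0.19 (edgeR adjusted p = 0.0171), lost without control replicate 3, RSL3 replicate 1 or RSL3 replicate 2, with values from -0.25 to -0.10 over the alternatives. TWSG1, a BMP-binding protein, was not called, at 3885 ± 104 and 3628 ± 163 normalized counts (SD, n = 3).

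Other BMP target genes, the list nearest in kind to the members, had 2 of 12 tested genes lower, 2 higher and 8 not called. Called genes made up 33.3% of those tested, against 25.6% of all genes tested (12.7% lower and 12.9% higher). No reading is drawn from so few calls. LFNG, a glycosyltransferase that modifies Notch, had 181, 130.4 and 139 normalized counts in control cells and 65.6, 65.5 and 83.9 in treated cells, a fall by 1.07 on the log2 scale (edgeR adjusted p = 9.62e-05). SNAI2, a repressor of epithelial genes, fell from 4083 ± 168 to 3195 ± 161 normalized counts (SD, n = 3; edgeR adjusted p = 9.92e-07). HEY1, a bHLH repressor shared with Notch signalling, rose by 0.24 (edgeR adjusted p = 0.012) and GATA3, a zinc finger factor, by 0.49 (edgeR adjusted p = 0.0151). Each of the last pair passed the threshold in 11 of 14 alternatives. The HEY1 call was lost without control replicate 3 or RSL3 replicate 2, and the GATA3 call without control replicate 2 or RSL3 replicate 1. JUNB was not called (log2 fold change -0.14).

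TGF-beta targets driven by SMAD3 also moved both ways, with 3 of 12 tested genes lower and 4 higher. TGFBI, a matrix protein, fell from 22718 ± 1331 to 16329 ± 1247 normalized counts (SD, n = 3; edgeR adjusted p = 5.16e-08), and the collagen gene COL1A1 from 2034 ± 275 to 1410 ± 102 (SD, n = 3; edgeR adjusted p = 6.97e-06). SPHK1, a sphingosine kinase, rose from 2942 ± 32.1 to 4184 ± 297 (SD, n = 3; edgeR adjusted p = 1.25e-08). PMEPA1, a feedback inhibitor of SMAD2 and SMAD3, rose from 296 ± 35.0 to 463 ± 54.2 (SD, n = 3; edgeR adjusted p = 9.47e-05). TSC22D1 was not called (log2 fold change 0.06).

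Among the bHLH partners of ID proteins and genes that regulate or respond to them, 4 of 10 tested genes fell and 1 rose. Of the E proteins, which ID proteins sequester, TCF4 fell from 357 ± 16.7 to 230 ± 30.2 normalized counts (SD, n = 3; log2 fold change -0.63, edgeR adjusted p = 0.000127). TCF12 rose from 4836 ± 151 to 5355 ± 80.8 (SD, n = 3; 0.15, edgeR adjusted p = 0.00213), and TCF3 was not called. TWIST1, a bHLH factor of mesenchymal cells, fell from 1660 ± 115 to 1112 ± 77.7 (SD, n = 3; edgeR adjusted p = 1.53e-07). CDKN1A, a cell cycle inhibitor that ID proteins are known to repress, had a log2 fold change of -0.09 (edgeR adjusted p = 0.0164), a call lost without control replicate 2, RSL3 replicate 2 or RSL3 replicate 3.

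**Figure D4:**
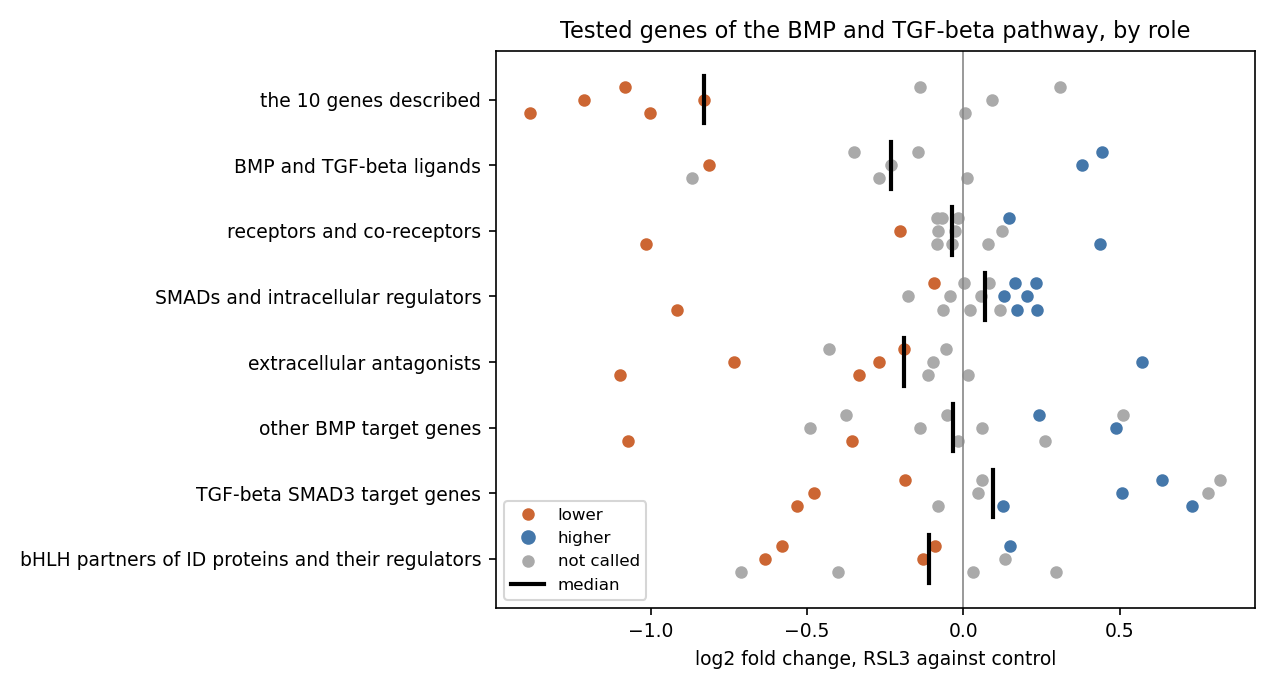
Log2 fold change of RSL3-treated against control cells (horizontal axis) for the tested members and for the tested genes of 7 lists by role; orange marks genes called lower, blue called higher and grey not called, and the vertical line is the median of each row. The members have a median of -0.83, and the list medians lie between -0.23 and 0.09. ID3 and ATOH8 were chosen by their fall in this comparison, so no reading is drawn from the distance between these medians. The row of extracellular antagonists also holds other extracellular regulators, such as LTBP1 and LTBP3.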

How the data were processed

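Poly(A) RNA of vehicle- and RSL3-treated U87MG cells was sequenced in 6 libraries. The values the authors deposited are raw counts of reads per Ensembl gene. Per the study's methods, reads were trimmed with Trimmomatic 0.36 and Fastp, aligned with HISAT2 to GRCh38.p4 and counted on exons with HTSeq 0.6.1p1 regardless of strand; the release of the annotation is not given in the sources used here. Reads in overlapping exons of different genes cannot be assigned, which can lower or blur a count.

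Groups and replicate numbers came from the sample titles. The test used edgeR 4.0.16 under R 4.3.3, with filterByExpr (minimum count 10), TMM, the quasi-likelihood F test without covariates, and Benjamini-Hochberg adjustment over all 16105 genes tested. The test was also run on simulated counts with the same dispersion for all genes, which does not cover genes of wider spread. Standard errors were derived from the F statistic. Symbols matched 56434 identifiers. Gene coordinates, exon lengths and starts are from GENCODE v44 (GRCh38), promoters from RefSeq (GRCh38.p14); all 10 genes matched. Alternatives were other scalings and filters, DESeq2 1.42.0 with 0, 1 or 2 surrogate variables (sva 3.50.0, genes with a mean normalized count over 1), the replicate number as a block, each library left out in turn, genes without shared exons, and a shorter window for the sequence search. Libraries of a group differed by more than sampling noise, with a chi-square of 2.45 to 5.52 per degree of freedom between pairs.

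The 10 genes, the lists and the rules were chosen with earlier results of these data known. Named in the text are all 10 genes, up to 4 called genes with the smallest p in each of 7 lists and the one not called with the highest level per kilobase, the 5 genes closest in pattern to ID1, ID3 and ATOH8, and genes of the sample check.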

Additional observations from a re-analysis of the deposited data

How the results depend on the processing

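Over 14 alternatives, the decreases of ID1 (log2 fold changes from -1.15 to -0.98), ID2 (-0.85 to -0.79), ID3 (-1.25 to -1.16) and ATOH8 (-1.73 to -1.20) stayed past the threshold, and ID4, SMAD7 and BMPR2 stayed short of it. SMAD6 passed in 13 and BAMBI in 2. The alternatives reuse the same libraries, in which ID3 and ATOH8 were chosen by their fall. They show dependence on processing and are no further evidence for these decreases. With the replicate block, 1 member (BAMBI) was called higher in place of 0, and with each library left out the number was 0 to 1 higher and 4 to 5 lower, SMAD6 being lost without control replicate 1. The labels share replicate numbers but name no pairing. Deviations of same-numbered libraries correlated at 0.022, 0.027 and 0.075, and those of differently numbered libraries at -0.051 to 0.024. The same-numbered values were thus mostly the higher ones, but all were small. Correlations this small over all genes tested cannot show whether same-numbered libraries were handled together. With no pairing named in the labels, the main test used none. With the block, 2283 genes were called lower and 2350 higher, against 2041 and 2082 without it, and RSL3 replicate 1 correlated slightly better with control replicate 2 than with its own number. DESeq2 with 2 surrogate variables called 1224 genes lower and 1229 higher, and 11 genes of the pathway lists higher in place of 18. With each library left out, the lists held 12 to 19 lower and 12 to 18 higher calls. Restricting the lists to genes without shared exons gave 9 lower and 8 higher, with fewer genes counted (46 of 83). Of the 27 called list genes named, 19 stayed past the threshold in all 14 alternatives. The window of 1000 bases left 0 members with the stricter sequence arrangement in place of 2. The order of levels by canonical transcript, chosen after seeing the data, moved ID4 to place 9 and SMAD6 to place 8. BMPR1A, ACVR1C, NEO1, FSTL1, HEY1 and GATA3 were each lost in DESeq2 with 2 surrogate variables. ID4, SMAD6 and BMP4 rest on the fewest reads of the members.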
